A study of Mus musculus with 11 samples.

Results

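Rab proteins are small GTPases that sit on the membranes of vesicles and organelles. Bound to GTP, each Rab recruits effectors that move, tether and fuse a particular set of carriers; exchange factors switch it on and GTPase-activating proteins switch it off. In skeletal muscle, Rab-directed traffic is known for bringing the glucose transporter GLUT4 to the surface, and myoblast fusion and the building of the myotube membrane also draw on vesicle traffic. The members described here are all array probes whose annotated gene symbol starts with Rab and a digit. They were 98 probes for 65 genes, out of 25697 probes for 16593 genes on the array, and they comprise 57 Rab GTPases and 8 effectors or regulators named after a Rab.

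The expression of these genes was measured in C2C12 cells, an established mouse myoblast line that withdraws from the cell cycle and fuses into myotubes when serum is lowered. The Day 6 group held 5 samples of C2C12 cells kept for 6 days in differentiation medium with horse serum, and the Day 0 group held 5 samples of the same line, undifferentiated, in growth medium rich in fetal bovine serum. The labels give no genetic change or other treatment in either group. Labeled RNA of each sample was put on Illumina MouseRef-8 v2.0 arrays, 1 per sample apart from Day 0 replicate 5, whose 2 arrays were averaged, so that 11 arrays gave 10 samples. The labels also carry the marks E1 to E4, whose meaning is not spelled out: Day 6 replicates 1, 2, 3, 4 and 5 bear E1, E2, E3, E3 and E4, and Day 0 replicates 1, 2, 3, 4 and 5 bear E1, E1, E2, E3 and E4.

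Values are log2 signals after background correction and quantile normalization, so that 1 unit is a doubling, and a probe was kept for testing when 3 or more samples of the same day detected it at a detection p under 0.05. Of the 98 member probes 66 were kept, 55 of them detected in all 10 samples, and they represent 48 genes. The days were compared by limma across all 12753 kept probes, and a call of higher or lower means a p under 0.05 after adjustment by the method of Benjamini and Hochberg. A gene with several kept probes is given by its brightest one. The other 32 member probes were detected in at most 4 samples, 23 of them in none, and they left 17 genes without a kept probe, among them Rab3b, Rab3c, Rab17, Rab25, Rab37 and Rab39.

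Markers of the muscle lineage fitted the labels in part. Desmin (Des), Itga7 and Myod1 were detected and called higher at Day 6, whereas Msc was lower and Myf5 did not pass the detection filter. All 5 tested markers of differentiated muscle (Myog, Mef2c, Ckm, Acta1 and Tnnt3) were called higher, and their summed signal was 21659 to 25498 in the Day 6 samples, against 346.0 to 709.5 in Day 0 replicates 1 to 4 and 5735 in Day 0 replicate 5. That last sample therefore stood apart from the other undifferentiated samples toward the differentiated ones, and results that rest on it are given without it as well. Of other cell types, Cd14 was the 1 leukocyte marker detected of 3 on the array and was lower (summed signal 47.7 to 81.3 at Day 6, against 81.1 to 164.3 at Day 0), and of 5 osteoblast markers Bglap and Alpl were detected, with a summed signal of 251.1 to 337.1 at Day 6, against 58.6 to 121.2 at Day 0, and Bglap called higher. Of 4 epithelial markers on the array Cdh1 and Krt19 were detected, at a summed signal of 69.4 to 93.9 at Day 6, against 80.7 to 122.0 at Day 0, and Krt19 was called lower. Of the defining markers on the array, Ptprc, Pecam1, Cdh5, Adipoq, Rbfox3, Ibsp and Sp7 did not pass the detection filter. Lep of 4 adipocyte markers on the array, Kdr and Tek of 5 endothelial ones and Map2 of 5 neuron ones did pass it. They differed by 0.17, 0.09, 0.08 and 0.32 and were not called. The part of the muscle, leukocyte, osteoblast and epithelial markers in the results below was not tested, and in these bulk samples a change in the share of differentiated cells cannot be told apart from a change in RNA per cell.

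Over all members, slightly more genes were higher than lower at Day 6. Of the 48 genes tested 13 were called higher (27.1%) and 8 lower (16.7%), while 27 were not called. The same call was made for 21% of all 8659 genes in the upward and 24.2% in the downward direction (45.2% in either), so neither share lay far from the rest of the array. The median change over member genes was 0.17 on the log2 scale, against -0.03 over all genes. Counted by probe, 16 of 66 were higher and 12 lower, against 20.5% and 23.8% of all 12753 kept probes (44.4% in either direction), and the 5 Day 6 values lay wholly apart from the 5 Day 0 values for 18 member probes (27.3%), against 31.4% of all kept probes. For 15 member genes (31.2%) the days did not overlap, against 32.5% of all genes. Without Day 0 replicate 5, 14 member genes were called higher and 11 lower. Over all 12659 probes kept then, 2790 were higher and 3405 lower, against 2620 and 3041 of 12753 with that sample. All 21 called genes kept their direction without it and 20 their call, whereas 5 uncalled genes gained a call and the difference of 13 of the 27 uncalled genes changed in size by over 1.5 times or in sign; these values stand beside each gene below. With the arrays scaled to equal medians in place of equal quantiles, 4 member genes (Rab3a, Rab44, Rab3d and Rab33b) were called higher and 7 lower. Over all 12753 kept probes 1479 were then higher and 2735 lower, so that 35.1% of all called probes were higher, against 46.3% otherwise. By the Z-ratio, the measure that the study's methods use, 9 of the 98 member probes were at 1 or more and 7 at -1 or less, against 6.99% and 7.97% of all 25697 probes.

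The Rab members thus differed from one another rather than moving as a block. Changes ranged from -1.16 for Rab34 to 1.65 for Rab3a. Grouped by the step of traffic they are best known for, exocytic Rabs gave 4 higher and 1 lower of 9 tested (3 and 1 of 8 without Rab12, placed there beside its relatives Rab8 and Rab10 but known mainly from endosomal traffic), Rabs of the early endosome 1 higher and 2 lower of 5, Rabs of the recycling endosome 0 higher and 1 lower of 6, and Rabs of late endosomes, lysosomes and autophagy 1 higher and 2 lower of 7. Rabs placed between endoplasmic reticulum (ER) and Golgi or within the Golgi gave 3 higher and 1 lower of 9. In this group Rab18, Rab33b and Rab6a were called higher and Rab34 lower, whereas Rab1a, Rab1b and Rab2a were not called. Less characterized Rabs gave 1 higher and 1 lower of 6, the Rab11 family interacting proteins 2 higher and 0 lower of 3, and the regulators named after a Rab 1 higher and 0 lower of 3. Over all 8659 genes, 21% were called higher and 24.2% lower. With so few genes to a step, the counts by step describe the members and were not tested against each other or against all genes.

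**Figure D1:**
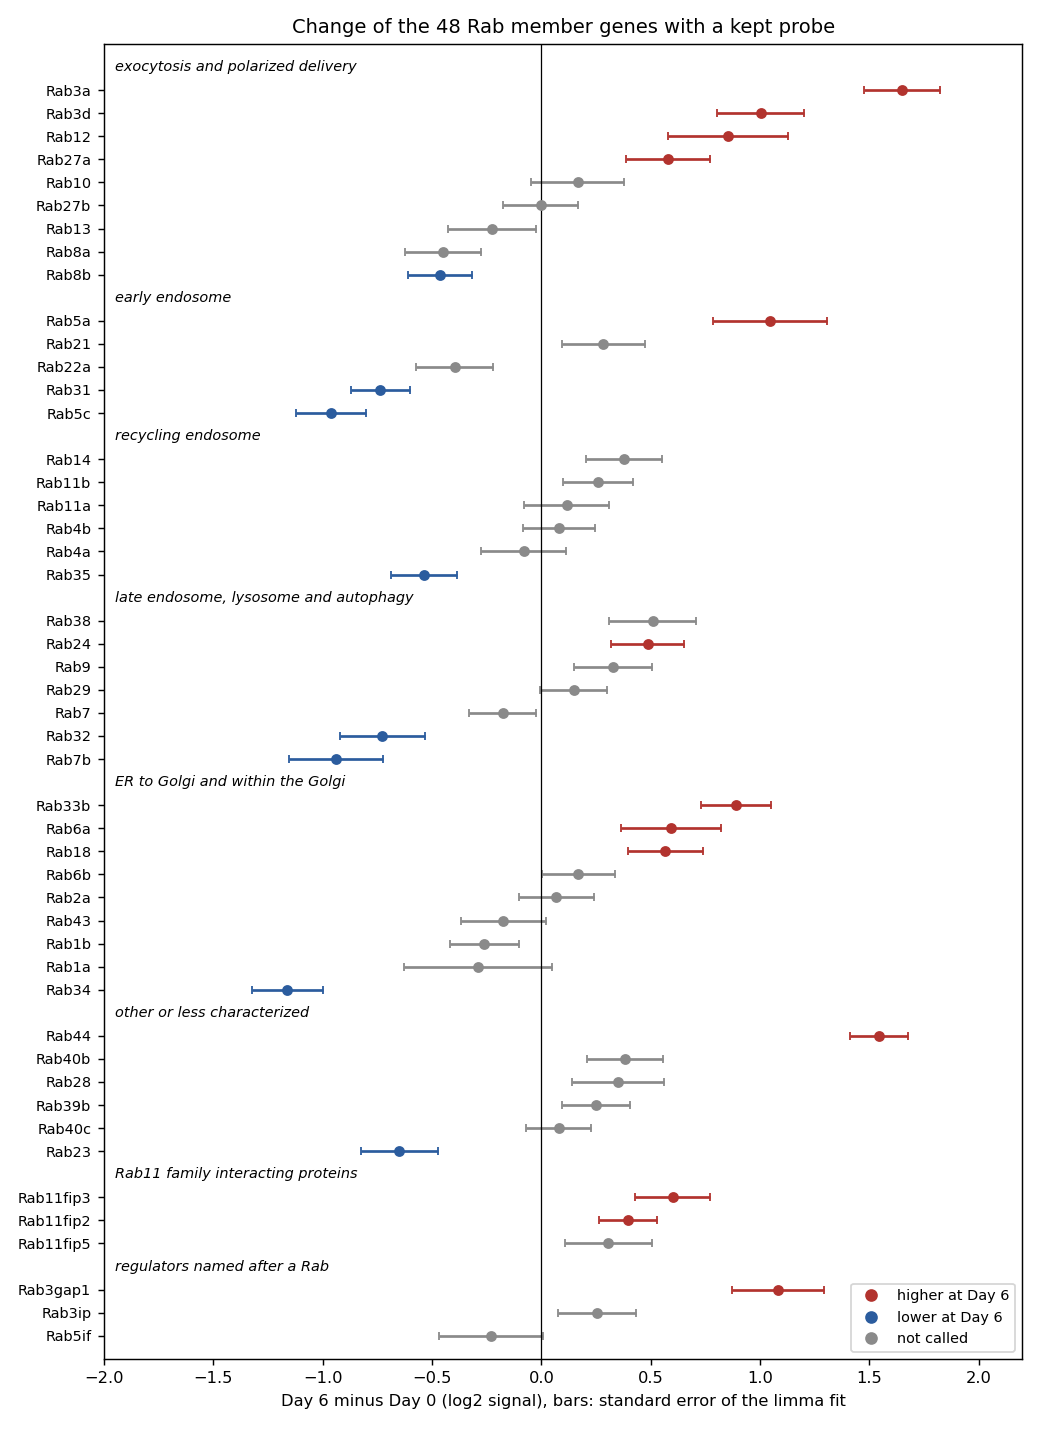
Day 6 minus Day 0 difference in log2 signal (horizontal axis) for each of the 48 member genes with a kept probe, grouped by step of traffic, with the standard error of the limma fit; red points were called higher, blue points lower and grey points were not called. Rab3a lies farthest to the right at 1.65 and Rab34 farthest to the left at -1.16.

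Promoters of 6 members that changed in opposite ways are shown first, because the Rab3 pair rose together while Rab5a and Rab5c, close relatives, went apart. The windows run from 250 bases before to 50 after the annotated start and come from RefSeq (GRCm38.p6), in which 54 of the 65 member genes had an entry. Capitals mark matches on either strand. The motif GGGCGG is the GC box read by Sp1-type factors, and it reads CCGCCC on the other strand. E-boxes of the kind that MyoD can bind were searched in 2 forms, CACCTG with its reverse complement CAGGTG, and the palindrome CAGCTG; no 2 of the motifs share letters in the windows shown. The coordinates are chr8:70754453-70754752 on the plus strand for Rab3a, chr9:21918134-21918433 on the minus strand for Rab3d, chr17:53478984-53479283 on the plus strand for Rab5a, chr11:100738166-100738465 on the minus strand for Rab5c, chr17:65772703-65773002 on the minus strand for Rab31 and chr11:78188177-78188476 on the plus strand for Rab34. For Rab3a and Rab34, which have 2 entries each, the first is printed.
Rab3a: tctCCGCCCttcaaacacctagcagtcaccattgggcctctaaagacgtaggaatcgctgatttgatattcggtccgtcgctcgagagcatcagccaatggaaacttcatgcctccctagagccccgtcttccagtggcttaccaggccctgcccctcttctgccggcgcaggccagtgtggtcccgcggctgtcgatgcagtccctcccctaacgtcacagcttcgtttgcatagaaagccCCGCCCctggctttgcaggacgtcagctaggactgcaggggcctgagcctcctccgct
Rab3d: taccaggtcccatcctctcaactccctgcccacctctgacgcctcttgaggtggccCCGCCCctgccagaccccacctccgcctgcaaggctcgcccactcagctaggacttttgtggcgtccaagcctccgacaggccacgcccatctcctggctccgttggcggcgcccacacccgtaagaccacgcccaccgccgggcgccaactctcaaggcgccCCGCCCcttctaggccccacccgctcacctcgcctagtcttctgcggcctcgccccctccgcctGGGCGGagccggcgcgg
Rab5a: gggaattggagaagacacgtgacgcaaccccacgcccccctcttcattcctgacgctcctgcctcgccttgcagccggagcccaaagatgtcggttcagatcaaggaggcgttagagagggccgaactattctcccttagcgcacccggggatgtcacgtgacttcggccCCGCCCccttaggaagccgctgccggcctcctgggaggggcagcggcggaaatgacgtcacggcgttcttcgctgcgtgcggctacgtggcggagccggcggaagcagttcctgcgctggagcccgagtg
Rab5c: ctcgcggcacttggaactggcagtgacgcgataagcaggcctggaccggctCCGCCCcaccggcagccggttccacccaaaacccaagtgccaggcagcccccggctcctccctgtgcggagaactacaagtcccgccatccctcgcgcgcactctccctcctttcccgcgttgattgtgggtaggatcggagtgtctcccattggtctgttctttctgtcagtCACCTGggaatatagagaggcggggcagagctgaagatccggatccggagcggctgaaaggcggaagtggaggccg
Rab31: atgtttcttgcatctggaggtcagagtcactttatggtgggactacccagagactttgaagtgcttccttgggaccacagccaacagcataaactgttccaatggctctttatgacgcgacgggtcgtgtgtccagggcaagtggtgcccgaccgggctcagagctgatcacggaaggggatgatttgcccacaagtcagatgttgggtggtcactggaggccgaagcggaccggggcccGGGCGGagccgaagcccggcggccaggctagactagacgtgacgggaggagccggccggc
Rab34: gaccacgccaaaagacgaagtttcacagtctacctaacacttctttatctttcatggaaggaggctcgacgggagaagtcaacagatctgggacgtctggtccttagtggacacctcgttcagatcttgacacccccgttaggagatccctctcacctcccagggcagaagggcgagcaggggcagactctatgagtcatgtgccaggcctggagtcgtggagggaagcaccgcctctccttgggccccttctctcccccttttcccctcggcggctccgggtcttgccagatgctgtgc
GC boxes numbered 2 in the Rab3a window, 3 in that of Rab3d, 1 each in those of Rab5a, Rab5c and Rab31, and 0 in that of Rab34; the 1 E-box match was a CACCTG in the Rab5c window. Among the 41 kept member genes with an entry, GGGCGG was found in 31 windows (75.6%), against 35.7% of all 32851 windows in the table. Each member gene gives 1 window, whereas the table also holds further entries of a gene and genes without a kept probe. The sets are therefore unlike, here and in the shares and medians that follow, and other kept genes were not examined. For CACCTG the shares were 5 of 41 (12.2%) and 20.2%, and for CAGCTG 6 of 41 (14.6%) and 16.3%. Split by call, CAGCTG stood in 1 of 11 windows of genes called higher and in 0 of 7 of genes called lower, and CACCTG in 1 of 11 and in 2 of 7. GGGCGG stood in 9 of 11 and in 5 of 7. The member windows held a median of 25 CpG dinucleotides and 63.3% G and C, against 7 and 52.7% over all windows. A match is a run of letters and not a measured binding site.

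Exocytic Rabs included the largest increase among the members. Rab3a, which sits on synaptic and secretory vesicles and acts in regulated exocytosis, had log2 signals of 8.21, 7.84, 7.67, 7.48 and 7.58 in Day 6 replicates 1 to 5, against 5.76, 5.96, 6.27, 6.24 and 6.29 in Day 0 replicates 1 to 5. The days lay wide apart, the lowest differentiated sample being well above the highest undifferentiated one. The mean was 7.75 ± 0.29 at Day 6 and 6.11 ± 0.23 at Day 0 (SD, n = 5 each), a difference of 1.65 ± 0.17 (SE) or 3.14-fold (adjusted p = 4.65e-06, limma). Its relative Rab3d, a Rab of secretory granules in exocrine and mast cells, had 8.30, 8.28, 7.86, 8.15 and 7.94 at Day 6, against 6.86, 6.58, 7.31, 7.06 and 7.70 at Day 0. The days again did not overlap, with Day 0 replicate 5 nearest to the differentiated samples. The increase of Rab3d was 1.003 ± 0.20, or 2.00-fold (adjusted p = 0.00109, limma), and 1.15 without Day 0 replicate 5.

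Rab3gap1, the catalytic subunit of the GTPase-activating protein for Rab3 and also part of an exchange factor for Rab18, had 10.05, 10.08, 10.75, 10.17 and 10.11 at Day 6, against 9.23, 9.28, 9.30, 9.51 and 8.42 at Day 0. The days did not overlap. Day 6 replicate 3 was well above and Day 0 replicate 5 well below the rest of its own day. The difference was 1.08 ± 0.21 (adjusted p = 9.27e-04, limma), and 0.90 without Day 0 replicate 5. Rab12, a Rab of endosomal traffic related in sequence to Rab8 and Rab10, had 9.86, 10.09, 9.89, 9.54 and 9.66 at Day 6, against 9.30, 9.41, 8.77, 9.46 and 7.82 at Day 0. The days were apart, but Day 6 replicate 4 and Day 0 replicate 4 nearly met, and Day 0 replicate 5 was far below all others. Its increase of 0.85 ± 0.27 (adjusted p = 0.0214, limma) came to 0.57 without that sample. Without Day 6 replicate 2 it was 0.78 and not called (adjusted p = 0.0506, limma).

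Rab27a, which docks secretory granules and melanosomes at the cell periphery, had 5.75, 5.38, 6.49, 5.77 and 6.09 at Day 6, against 5.49, 5.27, 5.28, 5.11 and 5.43 at Day 0. Day 6 replicate 2 lay within the undifferentiated range and Day 6 replicate 3 highest. The difference was 0.58 ± 0.19 (adjusted p = 0.0244, limma), whereas Rab27b, its paralog, gave -0.00 ± 0.17 and was not called (-0.08 without Day 0 replicate 5). Rab27a lost its call without Day 6 replicate 3 (0.43), Day 6 replicate 5 (0.53) or Day 0 replicate 4 (0.53), and without both E4 samples (0.56, adjusted p = 0.0521, limma). Rab8b, a Rab of polarized delivery to the plasma membrane, was the lowered gene of this group, with 9.27, 8.999, 8.80, 9.11 and 8.88 at Day 6, against 9.59, 9.57, 9.46, 9.60 and 9.17 at Day 0. The days overlapped through Day 6 replicate 1 and Day 0 replicate 5. Rab8b fell by 0.46 ± 0.15 (adjusted p = 0.0193, limma).

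**Figure D2:**
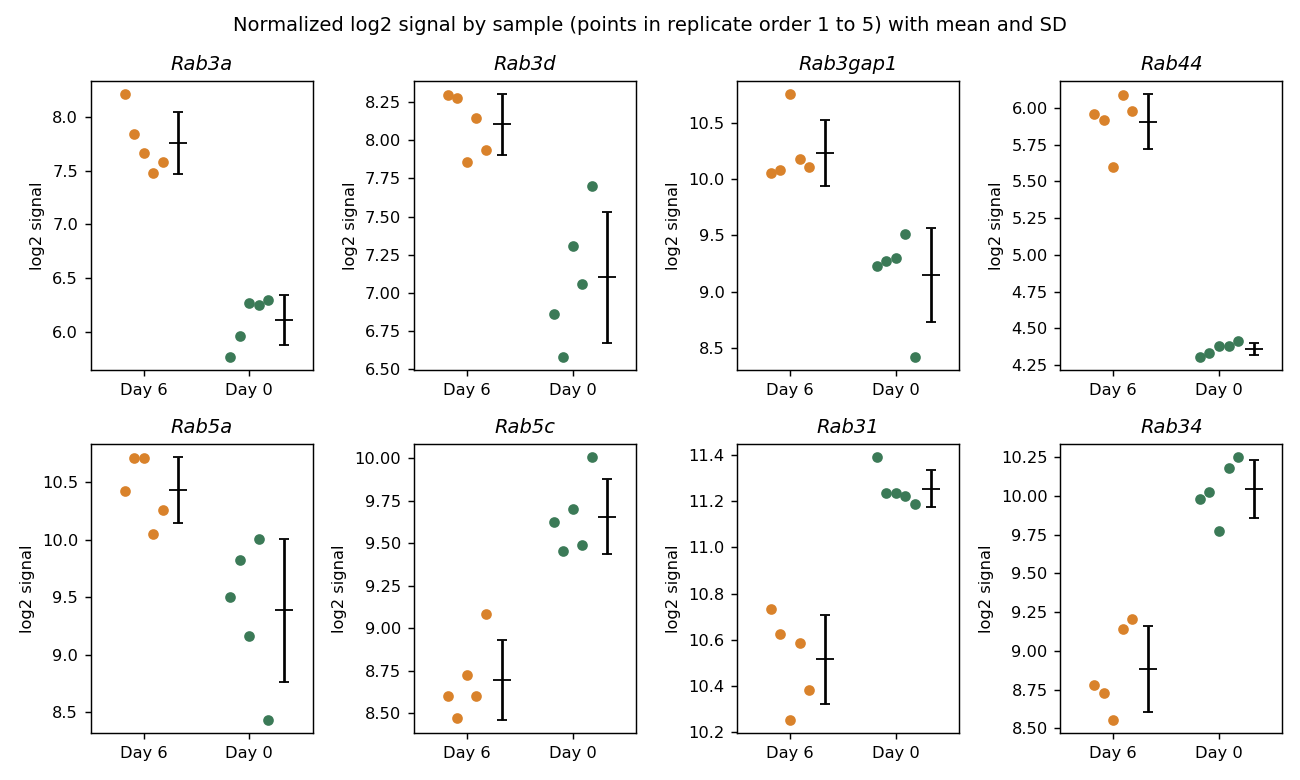
Normalized log2 signal (vertical axis) of 8 member genes in each sample, with points in the order of replicates 1 to 5 and, beside them, the mean and SD of 5 samples; Day 6 is on the left and Day 0 on the right of each panel. The days do not overlap in any of the 8 panels, Rab3a, Rab3d, Rab3gap1, Rab44 and Rab5a being higher and Rab5c, Rab31 and Rab34 lower at Day 6.

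Rabs that act on GLUT4 vesicles were mostly not called. Rab8a, with Rab10 and Rab13 a substrate of the GTPase-activating protein AS160, had 9.28, 9.05, 9.35, 9.68 and 9.73 at Day 6, against 9.97, 9.82, 10.01, 10.09 and 9.45 at Day 0. The 2 days overlapped through Day 0 replicate 5, and the difference of -0.45 ± 0.17 just missed the threshold (adjusted p = 0.0505, limma), while its second probe was called lower at -0.58 (adjusted p = 0.0259). Without Day 0 replicate 5 the first probe was called as well, at -0.56 (adjusted p = 0.0117, limma), and so it was without Day 6 replicate 4 (-0.52) or 5 (-0.53). Rab10, the main Rab of GLUT4 delivery in fat cells, had 7.35, 7.29, 7.53, 6.94 and 7.33 at Day 6, against 6.84, 6.94, 7.18, 6.74 and 7.90 at Day 0. Day 0 replicate 5 was above every other sample of either day, and the difference was 0.17 ± 0.21 (adjusted p = 0.561, limma). Without that sample it was 0.36 and still not called (adjusted p = 0.0642, limma). Rab13, a Rab of tight junction and GLUT4 traffic, was near the detection limit, with 5.17, 5.19, 4.67, 5.19 and 4.73 at Day 6, against 4.87, 4.78, 5.27, 5.76 and 5.41 at Day 0. Its values overlapped widely (difference -0.23 ± 0.20, adjusted p = 0.393, limma). Rab14, found on Golgi, early endosomes and GLUT4 vesicles, had 10.21, 10.35, 10.04, 10.04 and 10.34 at Day 6, against 9.94, 10.31, 9.68, 9.80 and 9.37 at Day 0. Most differentiated samples were above most undifferentiated ones, yet the difference of 0.38 ± 0.17 was not called (adjusted p = 0.0944, limma). It was called without Day 0 replicate 2, at 0.50 (adjusted p = 0.0277, limma). Without Day 0 replicate 5, the lowest sample, it came to 0.26 and was not called (adjusted p = 0.176, limma).

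At the early endosome the paralogs of Rab5 moved in opposite directions. Rab5a, which drives homotypic fusion of early endosomes, had 10.42, 10.71, 10.71, 10.05 and 10.26 at Day 6, against 9.50, 9.82, 9.16, 10.01 and 8.43 at Day 0. The lowest differentiated sample lay only just above the highest undifferentiated one, and Day 0 replicate 5 was lowest by a wide margin. The mean was 10.43 ± 0.29 at Day 6 and 9.38 ± 0.62 at Day 0 (SD, n = 5 each), the difference 1.05 ± 0.26 or 2.06-fold (adjusted p = 0.00529, limma), and 0.81 without Day 0 replicate 5. Its second probe was also called higher, at 0.89 ± 0.22. Rab5c, which shares the early endosome with Rab5a, had 8.60, 8.47, 8.73, 8.60 and 9.08 at Day 6, against 9.63, 9.46, 9.70, 9.49 and 10.01 at Day 0. No differentiated sample reached an undifferentiated one. The mean was 8.70 ± 0.24 at Day 6 and 9.66 ± 0.22 at Day 0 (SD, n = 5 each), so Rab5c fell by 0.96 ± 0.16 and was 1.95-fold lower (adjusted p = 2.77e-04, limma).

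The change of Rab5a exceeded that of Rab5c by 2.01 ± 0.42 (SE), tested on the difference between the 2 probes within each sample, which did not overlap between the days (p = 0.00794 in a two-sided exact permutation test, which with 5 against 5 samples can give no smaller value; adjusted p = 0.0397 over 10 pairs of paralogs). Among the other 9 pairs, Rab7 and Rab7b also differed in their change, by 0.76 ± 0.25 (exact permutation p = 0.00794, adjusted p = 0.0397). Rab3a rose more than Rab3d by 0.65 ± 0.17, but this difference missed the threshold after adjustment (exact permutation p = 0.0159, adjusted p = 0.0529). For the pairs of Rab1, Rab4, Rab6, Rab8, Rab11, Rab27 and Rab40 the differences lay between -0.16 and 0.58 with standard errors of 0.17 to 0.52, and the smallest adjusted p was 0.222 by the same exact permutation test, so that differences of this size between them were not resolved with 5 samples a day. Without Day 0 replicate 5 the same 2 pairs differed, Rab5a and Rab5c by 1.68 and Rab7 and Rab7b by 0.67, and so did Rab1a and Rab1b, by -0.52 (against -0.03 with it; exact permutation p = 0.00794 and adjusted p = 0.0265 for each of the 3).

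Rab31, a relative of Rab5 that works between the trans-Golgi network and endosomes, had 10.73, 10.62, 10.25, 10.59 and 10.38 at Day 6, against 11.39, 11.23, 11.23, 11.22 and 11.18 at Day 0. The undifferentiated samples lay close together and above all differentiated ones. It fell by 0.74 ± 0.14 (adjusted p = 6.21e-04, limma) and was 1.67-fold lower. Rab22a, the nearest relative of Rab31, was not called by its brightest probe (-0.40 ± 0.18, adjusted p = 0.0829) but was called lower by its second (-0.45 ± 0.15, adjusted p = 0.0278, limma). The brightest probe was called lower too without Day 0 replicate 5 (-0.46, adjusted p = 0.0451, limma). Rab21, which carries integrins inward, gave 0.28 ± 0.19 and was not called (0.16 without that sample).

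Of the Rabs of the recycling endosome 1 of 6 was called. Rab35, a Rab of fast recycling and of actin remodeling at the plasma membrane, was that gene, with 9.10, 8.97, 9.41, 8.94 and 8.96 at Day 6, against 9.75, 9.76, 9.47, 9.31 and 9.76 at Day 0. Day 6 replicate 3 reached into the undifferentiated range, and Rab35 fell by 0.54 ± 0.15 (adjusted p = 0.0108, limma). Rab11a, the marker of the slow recycling compartment, had 5.93, 6.18, 6.72, 6.01 and 6.59 at Day 6, against 6.38, 6.32, 6.06, 6.37 and 5.72 at Day 0. The samples of both days were interleaved, with a difference of 0.12 ± 0.19 (adjusted p = 0.664, limma) that was of opposite sign without both E4 samples (-0.07) and 0.004 without Day 0 replicate 5. Rab11b, Rab4a and Rab4b gave 0.26 ± 0.16, -0.08 ± 0.20 and 0.08 ± 0.17, none of them called. Rab11b was called higher without Day 0 replicate 5 (0.37, adjusted p = 0.044, limma), and Rab4b gave 0.18 then and was not called.

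The Rab11 family interacting proteins, which bind Rab11 and link it to motors and membranes, all had positive differences. Rab11fip3, known for bringing recycling endosomes to the centrosome and the cleavage furrow, had 7.76, 7.85, 8.29, 7.85 and 7.57 at Day 6, against 7.37, 6.96, 7.04, 7.48 and 7.47 at Day 0. The days did not overlap but came close to each other between Day 6 replicate 5 and Day 0 replicate 4 (difference 0.60 ± 0.17, adjusted p = 0.0108, limma). Rab11fip2, which couples Rab11 to myosin Vb, rose by 0.40 ± 0.13 (adjusted p = 0.026, limma), its values running between 6.31 and 6.55 at Day 6, against 5.77 and 6.17 at Day 0. It lost the call without Day 6 replicate 2 (0.40), 3 (0.38) or 4 (0.38). Rab11fip5 gave 0.31 ± 0.20 and was not called, nor was its second probe at 0.38. That second probe was called higher without Day 0 replicate 5 (0.53, adjusted p = 0.0442, limma). The brightest probe then gave 0.43 and was not called (adjusted p = 0.0619, limma). Of the other regulators, Rab3ip, the exchange factor for Rab8 also named Rabin8, gave 0.26 ± 0.18, and Rab5if gave -0.23 ± 0.24, neither of them called. They gave 0.14 and -0.38 without Day 0 replicate 5, again not called.

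On late endosomes and lysosomes Rab7 was not called while Rab7b fell. Rab7, which directs late endosomes and autophagosomes to lysosomes, had 9.74, 9.97, 9.67, 9.93 and 10.21 at Day 6, against 9.89, 10.17, 10.16, 10.35 and 9.84 at Day 0. The days overlapped, and the difference was -0.18 ± 0.15 (adjusted p = 0.383, limma), with 2 further probes at 0.09 and 0.05. Day 0 replicate 5 was low on both further probes, and without it the 3 probes gave -0.24, -0.18 and -0.22, none of them called. Rab7b, which returns cargo from late endosomes to the trans-Golgi network, had 6.38, 6.48, 5.95, 6.49 and 6.16 at Day 6, against 6.80, 6.82, 7.94, 7.22 and 7.37 at Day 0. The days were apart, Day 0 replicate 3 being highest, and Rab7b fell by 0.94 ± 0.21 and was 1.92-fold lower (adjusted p = 0.00279, limma). Rab32, a Rab of lysosome-related organelles and mitochondria, had 8.08, 7.85, 7.12, 7.68 and 7.56 at Day 6, against 8.17, 8.43, 8.46, 8.79 and 8.08 at Day 0. Day 6 replicate 1 just touched the lowest undifferentiated sample, and Day 6 replicate 3 was lowest of all. Rab32 fell by 0.73 ± 0.19 (adjusted p = 0.00777, limma).

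Rab38, the closest relative of Rab32, was detected in 3 samples at Day 6 and in 0 at Day 0, with a difference of 0.51 ± 0.20 that was not called (adjusted p = 0.0527, limma). It was called higher without Day 0 replicate 5 (0.55, adjusted p = 0.0435, limma). Its Day 6 mean lay 1.21-fold above the detection floor of the Day 0 arrays, 1 of 6 of which detected it. That mean includes undetected Day 6 samples, so the fold is no strict lower bound. Rab24, an atypical Rab linked to autophagy, was called higher by all 3 of its probes, at 0.49 ± 0.17, 0.68 ± 0.19 and 0.43 ± 0.16 (adjusted p = 0.0302, 0.0101 and 0.0423, limma), although the days overlapped in each. Its brightest probe lost the call without Day 6 replicate 2 (0.44), 4 (0.47) or 5 (0.43) or Day 0 replicate 1 (0.41), with E1 to E4 as a block (0.42, adjusted p = 0.0622, limma) and without both E4 samples (0.38, adjusted p = 0.101). The probe at 0.43 lost it without Day 0 replicate 5 (0.34, adjusted p = 0.0704, limma). Rab9, which carries mannose 6-phosphate receptors back to the Golgi, gave 0.33 ± 0.18, and Rab29 gave 0.15 ± 0.15, neither of them called.

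Among the Rabs placed between ER and Golgi or within the Golgi, Rab34 had the largest decrease of all members. Rab34, a Golgi Rab that positions lysosomes and takes part in building the primary cilium, had 8.78, 8.73, 8.55, 9.14 and 9.20 at Day 6, against 9.98, 10.03, 9.78, 10.18 and 10.25 at Day 0. All differentiated samples were clearly below all undifferentiated ones. The mean was 8.88 ± 0.28 at Day 6 and 10.04 ± 0.19 at Day 0 (SD, n = 5 each), a fall by 1.16 ± 0.16, so that Rab34 was 2.24-fold lower (adjusted p = 6.78e-05, limma). Its other probes gave -0.99 ± 0.16 and -0.95 ± 0.15, again with no overlap. Rab33b, a Golgi Rab that binds the autophagy protein Atg16L1, had 8.79, 8.36, 8.66, 8.43 and 8.28 at Day 6, against 7.97, 7.64, 7.69, 7.35 and 7.43 at Day 0. The days were apart, and Rab33b was 1.85-fold higher, by 0.89 ± 0.16 (adjusted p = 5.33e-04, limma).

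Rab6a, which runs retrograde traffic within the Golgi and to the ER, had 9.74, 9.97, 10.13, 10.03 and 9.79 at Day 6, against 9.47, 9.74, 9.12, 9.87 and 8.50 at Day 0. Day 0 replicate 4 lay among the differentiated samples, Day 0 replicate 2 level with the lowest of them, and Day 0 replicate 5 far below all. The difference of 0.59 ± 0.23 only just passed the threshold (adjusted p = 0.04997, limma), its 2 other probes were not called (0.41 and 0.06), and without Day 0 replicate 5 it was 0.38 and not called (adjusted p = 0.077, limma). The call was also lost, at differences of 0.54 to 0.64, when any 1 of the Day 6 samples or Day 0 replicate 1 or 3 was left out, and without both E4 samples (0.42). Rab18, a Rab of the ER and of lipid droplets, rose by 0.57 ± 0.17 (adjusted p = 0.0155, limma), with values between 7.43 and 8.16 at Day 6, against 6.92 and 7.42 at Day 0. The days all but met without overlapping.

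Rab1a, the Rab of ER to Golgi transport, had 7.57, 7.90, 7.56, 7.24 and 7.52 at Day 6, against 8.48, 7.97, 7.85, 8.59 and 6.34 at Day 0. Day 0 replicate 5 was far below every other sample, while the other undifferentiated samples were mostly above the differentiated ones. Over all samples the difference was -0.29 ± 0.34 and not called (adjusted p = 0.523, limma). Without Day 0 replicate 5 it was -0.67 and called lower (adjusted p = 0.0102, limma), and without both E4 samples -0.66 (adjusted p = 0.0211). Rab1b, Rab2a, Rab6b and Rab43 gave -0.26, 0.07, 0.17 and -0.17, none of them called. For Rab1b, Rab2a and Rab43 the differences without Day 0 replicate 5 were -0.15, -0.07 and -0.06, still not called.

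**Figure D3:**
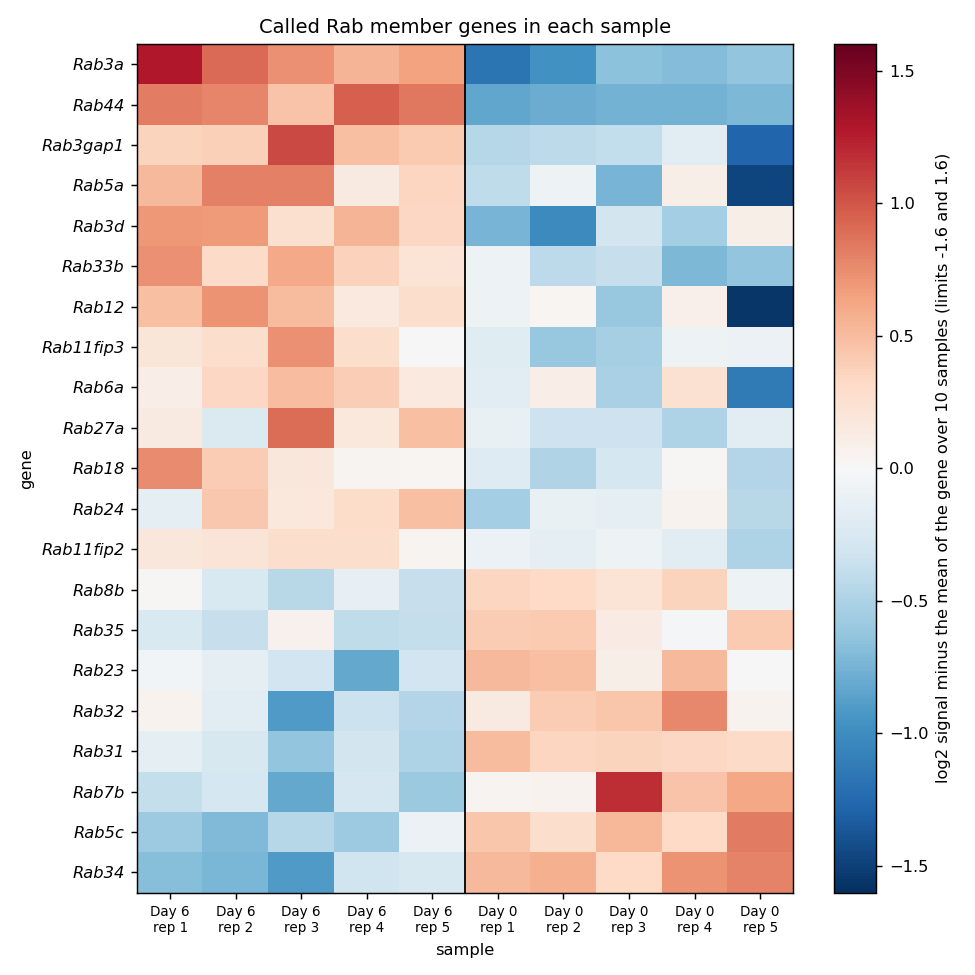
Log2 signal of the 21 called member genes (rows) in each sample (columns, Day 6 left of the line and Day 0 right of it), minus the mean of the gene over 10 samples; red is above and blue below that mean. Day 0 replicate 5 is the deepest blue for Rab3gap1, Rab5a, Rab12 and Rab6a, and within each row most Day 6 samples share a colour.

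Among the less characterized members, Rab44 had the second largest increase. Rab44, a large atypical Rab with EF-hand domains, had 5.96, 5.92, 5.59, 6.09 and 5.98 at Day 6, against 4.30, 4.33, 4.38, 4.38 and 4.41 at Day 0. It was detected in all 5 differentiated samples and on none of the undifferentiated arrays, so its fold is a lower bound set by the detection floor of each array: at least 2.33-fold higher at Day 6 (fitted difference 1.55 ± 0.13, adjusted p = 8.02e-07, limma). Rab23, a Rab that restrains Hedgehog signaling, had 6.37, 6.26, 6.10, 5.59 and 6.10 at Day 6, against 6.93, 6.89, 6.50, 6.93 and 6.41 at Day 0. The undifferentiated samples were all above the differentiated ones, narrowly so between Day 0 replicate 5 and Day 6 replicate 1, and Rab23 fell by 0.65 ± 0.18 (adjusted p = 0.00906, limma). Rab28 gave 0.35 ± 0.21 over all samples and was not called. Day 0 replicate 5 lay far below the other undifferentiated samples in it, and without that sample the difference was 0.14. Rab40b, a Rab with a SOCS box, was undetected on every Day 0 array and detected in 3 samples at Day 6, and was not called (adjusted p = 0.087, limma). Its Day 6 mean, which includes undetected samples, lay 1.08-fold above the Day 0 detection floor. Rab40c and Rab39b gave 0.08 and 0.25 and were not called either (Rab40c 0.16 without Day 0 replicate 5).

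Where several probes measured a gene, they seldom disagreed in direction. Of 14 genes with more than 1 kept probe, 3 (Rab34, Rab5a and Rab24) had all probes called the same way, 7 had no probe called, 4 (Rab6a, Rab8a, Rab8b and Rab22a) had some called and some not, and 0 had probes called in both directions. The largest gap between probes of a called gene was for Rab6a, at 0.06 and 0.59. The probes of Rab7 lay on both sides of 0 over all samples, at -0.18, 0.09 and 0.05, and all 3 were below 0 without Day 0 replicate 5.

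**Figure D4:**
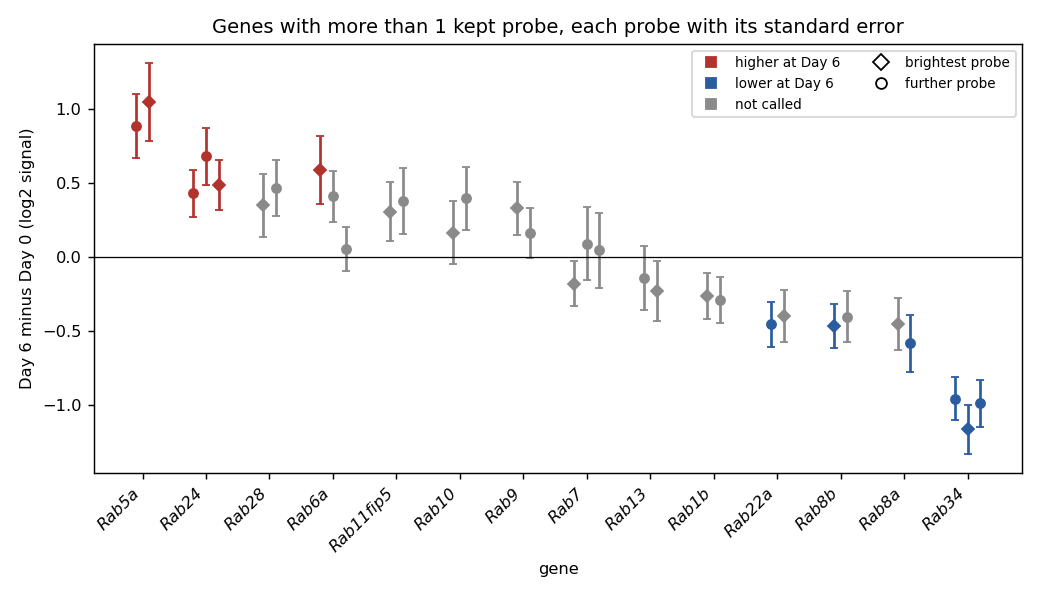
Day 6 minus Day 0 difference in log2 signal (vertical axis) with its standard error for every kept probe of the 14 member genes with more than 1; diamonds are the brightest probe of a gene and circles its further probes, red called higher, blue called lower and grey not called. All 3 probes of Rab34 lie near -1 and both probes of Rab5a near 1.

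The directions were also followed within the marks E1 to E4, each of which holds both days. All 13 genes called higher had a positive difference within each of the 4, and all 8 genes called lower a negative one. The genes were called on these same samples, so this agreement in sign is no independent support for the calls. Rab3a differed by 2.35, 1.57, 1.33 and 1.28 within E1, E2, E3 and E4, and Rab34 by -1.22, -1.05, -1.33 and -1.05. Rab5a varied more, at 0.76, 1.55, 0.37 and 1.82, and so did Rab12, at 0.50, 1.32, 0.26 and 1.84, with the largest values within E4, which holds Day 0 replicate 5. That sample was the lowest of its day in 22 of the 48 member genes and the highest in 14. Over all 12753 kept probes it was the lowest in 4590 and the highest in 3696. The samples otherwise resembled each other closely: over the 8659 genes, pairs of Day 6 samples correlated at 0.970 to 0.993, pairs of Day 0 samples at 0.937 to 0.993, and a Day 6 with a Day 0 sample at 0.837 to 0.892, and the median SD over member genes was 0.23 at Day 6 and 0.26 at Day 0.

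The machinery around the Rabs was read from 11 lists of traffic genes. Together they held 184 tested genes other than the members, of which 44 were higher and 36 lower (23.9% and 19.6%, against 21% and 24.2% of all genes). The factors that prenylate, deliver and retrieve Rabs were uncalled over all samples: 0 of 6 were higher and 0 lower, with a median change of -0.07. Without Day 0 replicate 5, Gdi2 (-0.64) and Rabggtb (-0.39) were called lower and Rabac1 (0.55) was called higher. Exchange factors gave 6 higher and 3 lower of 26, with Dennd2c at 1.54 ± 0.20, Dennd6b at 0.79 ± 0.17 and Rin1, an exchange factor for Rab5, at -0.88 ± 0.16. GTPase-activating proteins gave 6 higher and 9 lower of 25 (24% and 36%). Tbc1d19 (0.54) and Tbc1d2b (-0.32) lost their calls without Day 0 replicate 5. Tbc1d1, the muscle relative of AS160, was at 1.67 ± 0.17. Tbc1d8, below detection in all Day 0 samples, was at least 2.17-fold higher (fitted difference 1.36 ± 0.15), and Usp6nl, which acts on Rab5, was at -1.25 ± 0.21.

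Rab effectors were the list with the largest share of higher genes, 10 of 22 (45.5%), with 3 lower and a median change of 0.36. Rilpl1, a relative of the Rab7 effector RILP, rose by 2.03 ± 0.22 and Fyco1, which links Rab7 on autophagosomes to kinesin, by 1.76 ± 0.15 (adjusted p = 5.66e-06 and 6.89e-07, limma). Unc13d, an effector of Rab27 also named Munc13-4, was below detection in all Day 0 samples and at least 2.95-fold higher at Day 6 (fitted difference 1.92 ± 0.20, adjusted p = 4.96e-06, limma). It and Tbc1d8 were each detected on 1 of the 6 Day 0 arrays. Exocyst subunits gave 2 higher and 0 lower of 6, Exoc4 at 1.17 ± 0.18 and Exoc6 at 0.76 ± 0.15. SNAREs, the fusion proteins, and their regulators gave 9 higher and 7 lower of 36. Stx5 (0.36) and Stx1a (-0.34) lost their calls without Day 0 replicate 5, and Bet1l (0.47) was then called higher. The largest changes in that list were all increases, of 2.58 ± 0.23 for Vamp5, the muscle v-SNARE also named myobrevin, 2.19 ± 0.17 for Napb, an adaptor of the fusion ATPase NSF, and 1.37 ± 0.15 for Vamp4, a SNARE of the trans-Golgi network.

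The COPI and COPII coats of the ER and Golgi gave 5 higher and 2 lower of 16, with Copz2 at 1.65 ± 0.21, Sec23a at 1.22 ± 0.28 and Sec24b at -0.82 ± 0.17. Sec16a (0.70) was called higher without Day 0 replicate 5, and Sar1b (0.34) lost its call. Clathrin and its adaptors gave 1 higher and 6 lower of 18 (5.56% and 33.3%), with a median change of -0.24. Ap3s2 (0.56) was called higher and Ap2m1 (-0.44) lower without Day 0 replicate 5, and Gga1 (-0.35) lost its call. Ap1s1, the small subunit of the adaptor AP-1, fell to a mean of 7.10 at Day 6, against 8.62 at Day 0 (difference -1.52 ± 0.15, adjusted p = 2.5e-06, limma), the clathrin light chain Clta differed by -0.80 ± 0.21 and the AP-3 subunit Ap3d1 by -0.76 ± 0.25. Retromer and the tethers CORVET and HOPS gave 2 higher and 2 lower of 16, with Snx5 at -0.55 ± 0.17, Vps26b at -0.52 ± 0.17 and Vps41 at 0.50 ± 0.16. Vps18 (0.81) and Vps33a (0.51) were also called higher without Day 0 replicate 5, and Snx2 (-0.45) lower. Arf and Arl GTPases gave 3 higher and 3 lower of 12, Arf3 at -1.16 ± 0.26, Arf6 at -0.79 ± 0.18 and Trim23 at 1.14 ± 0.20. Sar1b, which is in this list as well, lost its call without Day 0 replicate 5 (0.34).

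The GLUT4 storage vesicle list, which includes 4 members, gave 4 higher and 1 lower of 11. Sort1, the sorting receptor sortilin that builds these vesicles, had a mean of 10.46 at Day 6 and 5.52 at Day 0, a difference of 4.95 ± 0.30 (adjusted p = 4.17e-08, limma). Tbc1d1 and Snap23, a SNARE of the plasma membrane at 1.12 ± 0.14, were called higher as well, and Aspscr1, also named TUG, which retains GLUT4 inside the cell, was the lowered gene at -0.63 ± 0.20 (adjusted p = 0.0222, limma). Slc2a4, GLUT4 itself, was near the detection limit, at a mean of 4.79 at Day 6 and 4.52 at Day 0, and was not called (0.27 ± 0.16, adjusted p = 0.178, limma), and the Rabs Rab8a, Rab10, Rab13 and Rab14 of that route were not called by their brightest probes.

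**Figure D5:**
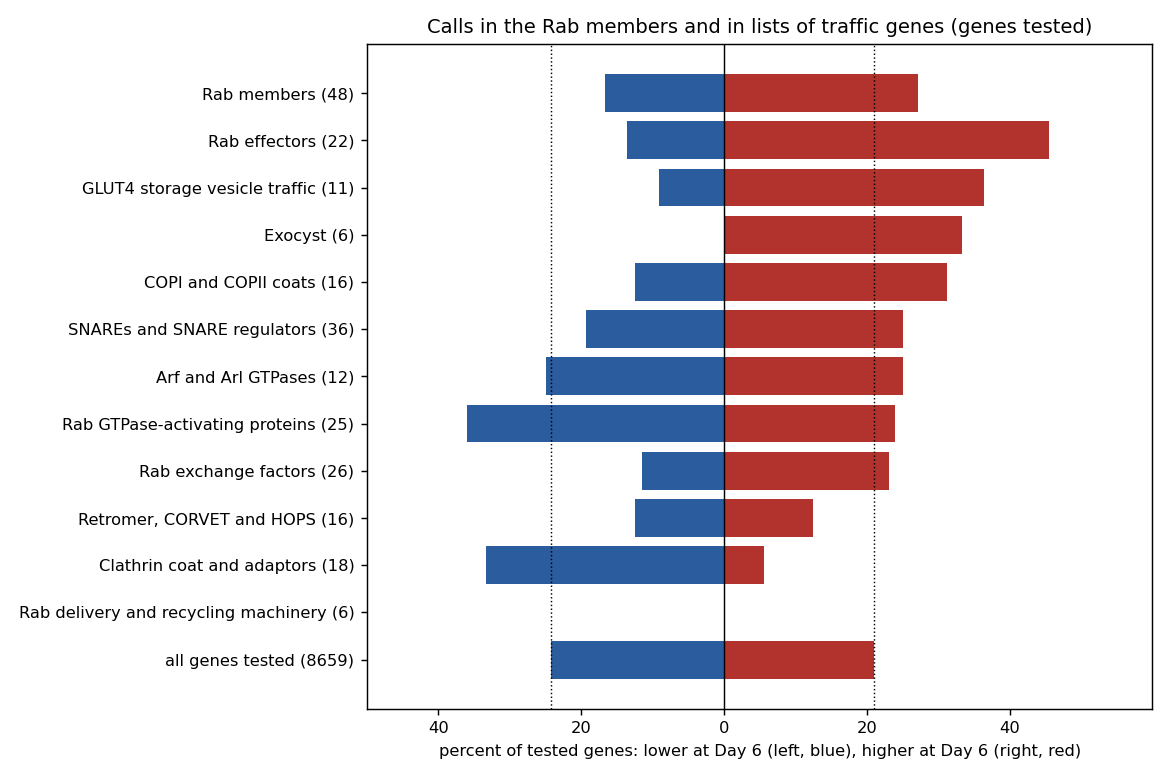
Percent of tested genes called higher (red, to the right) or lower (blue, to the left) at Day 6 in the Rab members and in 11 lists of traffic genes, with the number of genes tested in brackets; dotted lines mark the percent over all 8659 genes (21 higher, 24.2 lower). Rab effectors reach 45.5% higher, Rab GTPase-activating proteins 36% lower, and clathrin and its adaptors 33.3% lower.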

How the data were processed

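The authors obtained hybridization intensities from the scans in GenomeStudio 2011.1; the deposited intensities carry no background subtraction or normalization between arrays (lowest value 34). The deposited detection p-value compares a probe with negative controls. The deposited score is a Z-score (log signal minus the array mean, over the array SD), and scores recomputed here lay within 0.005 of it. Median signals were 56.6 to 64.3, and 44.7 to 48.7% of probes were detected per array; the number of arrays limits the precision.

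Intensities were corrected and quantile normalized by neqc in limma 3.58.1 (R 4.3.3; offset 16, controls inferred from detection p), and 12753 kept probes were fitted by lmFit and eBayes without covariates and adjusted together. Motifs were searched and plots drawn in Python 3.11.15. Folds against a day with no sample detected take for that day the higher of the probe's value and the lowest detected signal of each array. They are lower bounds where all samples of the other day were detected. Values in every sample are given for the called genes with the 10 largest increases and 10 largest decreases and for a list of well-known Rabs, and up to 3 called genes with the largest change are named from each traffic list. The members, lists and tests were chosen with earlier results of these data known. On simulated data of 12753 probes, limma recovered 6 of 50 probes raised by 0.5, 37 of 50 raised by 1, 50 of 50 raised by 2 and 30 of 50 lowered by 1. It called 4 of 12553 unchanged ones. Most simulated probes were unchanged, whereas 44.4% of kept probes were called in the data, so these rates do not carry over to the calls above.

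The design text calls the experiments independent, yet E1 to E4 are shared between replicates, so p-values measure the spread between these samples. Replicate numbers did not pair the samples: 1 of 5 Day 6 samples deviated most like the Day 0 sample of its number. Alternatives covered background correction, normalization, detection filter, deposited scores, either array of Day 0 replicate 5, blocks, a robust trend, 1 probe per gene, the Z-ratio and each sample left out.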

Additional observations from a re-analysis of the deposited data

Results flagged for a closer look

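Of 96 groups of 5 samples examined (48 member genes on 2 days), 6 held a sample set off from the other 4 by more than 0.71 of the group's range; chance alone gives about 1 in 20 such groups. Day 0 replicate 5 was the low sample in 3 of them: Rab11fip2 at 5.77, against 6.09 to 6.17 in the other undifferentiated samples, Rab28 at 10.18, against 11.12 to 11.43, and Rab3gap1 at 8.42, against 9.23 to 9.51. Rab3gap1 also had a high sample at Day 6, replicate 3 at 10.75, against 10.05 to 10.17. Rab31 was high in Day 0 replicate 1, at 11.39, against 11.18 to 11.23, which lies on the side away from the Day 6 samples. Rab9 was high in Day 0 replicate 4, at 6.56, against 5.95 to 6.12. Without Day 0 replicate 5, Rab3gap1 and Rab11fip2 were still called higher, at 0.90 (adjusted p = 0.000562, limma) and 0.33 (adjusted p = 0.0355).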

How the results depend on the processing

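No called member gene changed direction under any of the 24 alternatives tried for it, and 11 of 21 (Rab3a, Rab44, Rab3d, Rab33b, Rab34, Rab5c, Rab7b, Rab31, Rab32, Rab23 and Rab35) kept their call in all that gave them a value (Rab44 has none where detection in all 10 samples is asked); calls were kept 459 times and lost 44 times. Equal array medians in place of quantile normalization left 4 member probes, 4 member genes and 23 list genes higher, against 16, 13 and 44, and moved the share of higher among all called probes to 35.1%, against 46.3%; the cause was not tested. Under it Rab3a, Rab44, Rab3d and Rab33b stayed called higher and 7 member genes lower. A Z-ratio of 1 or more in size gave 9 member probes higher and 7 lower, by a rule with no replicate error. Rab6a lost its call in 15 alternatives, Rab24 and Rab11fip2 in 7 each and Rab27a in 6, while Rab8a gained one in 11. Leaving out 1 sample gave 11 to 17 member probes higher and 10 to 16 lower, 9 to 14 genes higher and 8 to 11 lower, and 36 to 47 list genes higher and 30 to 37 lower. Over all kept probes it gave 2323 to 2790 higher and 2678 to 3405 lower. The replicate block gave 15 and 11 member probes, 12 and 8 genes, and 38 and 33 list genes, and the numbers did not pair the samples (correlations -0.24 to 0.19).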
